A study of Homo sapiens with 12 samples.

Results

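Ribosome biogenesis and nucleolar genes are described here in 143B cells, an established human osteosarcoma line, under ceritinib, crenolanib and both drugs together. The genes were listed by symbol for their known roles, and the rule itself uses no measured value, although earlier results of these data were known when the list was drawn up. They are 40 genes for nucleolar processing factors, proteins of small nucleolar ribonucleoproteins (snoRNPs) and subunits of RNA polymerase I, of 56140 gene symbols in each library. All 40 were found in the 12 libraries and all 40 passed the filter on low values. The study compared 4 groups of 3 biological replicates, each treated for 48 h. The controls received DMSO, the solvent. The single-drug groups received 1.0 µM ceritinib, an inhibitor of the kinase ALK that also inhibits the IGF1 receptor, or 1.0 µM crenolanib, an inhibitor of PDGF receptors and FLT3. The combination group received both at 1.0 µM each. Every group was the same line with a genotype given as wild-type, so the data describe 1 cell line. By its title the series is about a combined treatment of osteosarcoma and about oncogenic signals that drugs switch on. Each comparison asks which transcripts of the ribosome assembly line moved with 1 drug or with both.

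Ribosomes are assembled in the nucleolus. RNA polymerase I transcribes the long precursor of the ribosomal RNAs. Box C/D snoRNPs guide methylation of this precursor and box H/ACA snoRNPs guide its pseudouridylation. The small-subunit processome and a succession of large-subunit factors then fold and cut it into the RNAs of both ribosomal subunits, and in growing tumour cells many of these genes are known targets of the transcription factor MYC.

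Values are FPKM, fragments scaled by transcript length and sequencing depth, as the authors deposited them. The depth estimated from the steps between low values was 23.9 to 26.5 M fragments for DMSO, 23.2 to 28.2 M under ceritinib, 22.7 to 24.1 M under crenolanib and 19.6 to 22.1 M under both. The member with the fewest fragments held an estimated 280 to 403 of them in each DMSO and single-drug library, and 84.8 to 126 in each combination library. One protocol label calls the RNA source thymic, whereas the remaining labels name 143B cells. Of 8 lymphoid or thymic markers, 0 reached a mean of 1 FPKM in any group, their summed level was 0.234 to 1.19 FPKM per library, and PTCRA was listed at 0 in every library. The summed level of 8 mesenchymal or osteosarcoma markers was 554 to 635 FPKM, most of it from VIM (407 to 480 FPKM as group means). Of these 8 markers 4 to 6 reached a mean of 1 FPKM in a group, COL1A1 was below that level and COL1A2 near 0 in all 4. The summed level of 6 epithelial markers was 61.1 to 95.6 FPKM, nearly all of it KRT8, lowest with ceritinib and highest with the combination, and its part in the results was not tested. The combination libraries stood apart as a whole, with 10284 to 10358 genes at 1 FPKM or more against 11220 to 11464 in the other libraries, and median-of-ratios size factors of 0.872 to 0.878 against 1.03 to 1.09. In bulk libraries, fewer cells with a transcript and less of it per cell cannot be told apart.

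The members covered a wide range of levels, which can be compared between genes since FPKM are per length. In DMSO, NPM1 (nucleophosmin, an abundant chaperone of the granular nucleolus) was highest at 469 ± 11.2 FPKM (SD, n = 3). NCL (nucleolin, an RNA-binding protein of the nucleolus) came next at 342 ± 3.51. DDX10, a helicase of the small-subunit pathway, was lowest at 5.09 ± 0.251. Summed over the 40 genes, the 3 DMSO libraries held 2071 to 2085 FPKM, the ceritinib libraries 2172 to 2201, the crenolanib libraries 2016 to 2068 and the combination libraries 1656 to 1711. Ceritinib was thus above and the combination below every DMSO library, and crenolanib below all 3 by a small margin. As a share of all FPKM the set took 0.836% to 0.847% in DMSO, 0.838% to 0.845% under ceritinib, 0.798% to 0.829% under crenolanib and 0.602% to 0.627% under both drugs, so on this scale ceritinib lay within the DMSO range. The 5 granular and multifunctional proteins made most of the drop in the combination: their sum went from 1011 to 1043 FPKM in DMSO to 601 to 645. The sum of the 11 large-subunit genes was 302 to 314 FPKM in DMSO and 312 to 323 in the combination, and these ranges overlapped.

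**Figure D1:**
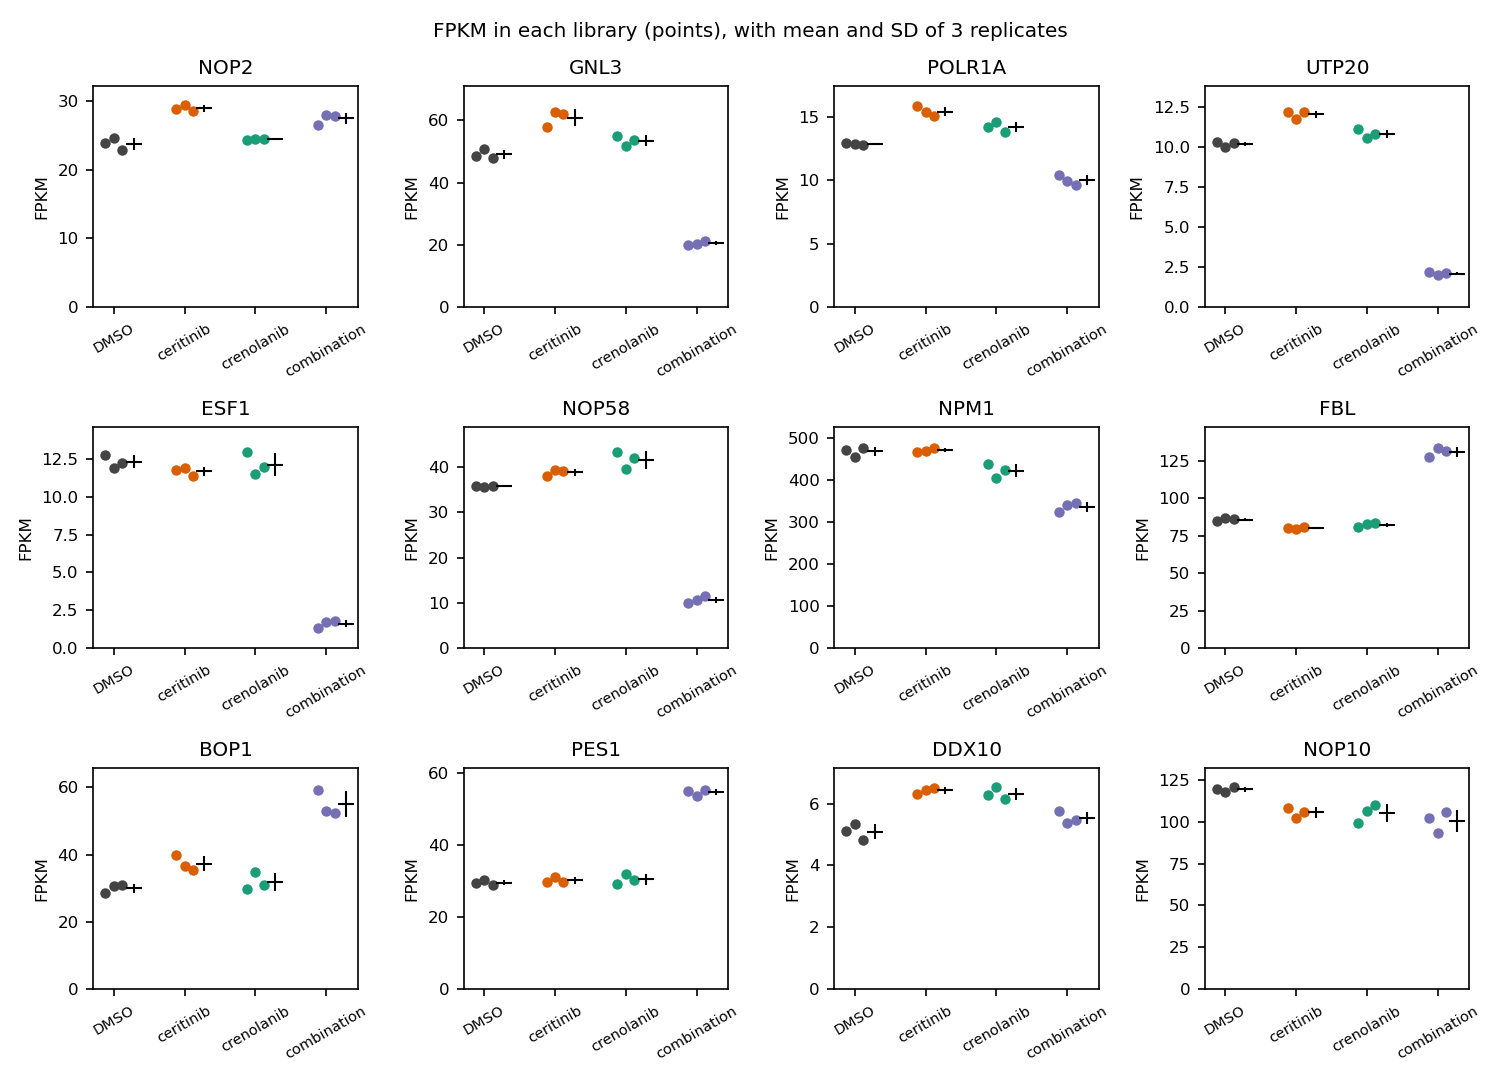
Expression of 12 members in each library, in FPKM (vertical axis, from 0), with 3 points per group for DMSO, ceritinib, crenolanib and the combination; the bar beside each group is its mean and SD (n = 3). UTP20, ESF1 and NOP58 fall steeply in the combination, FBL, BOP1 and PES1 rise there, and the single-drug groups stay near DMSO.

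Ceritinib alone raised 21 of the 40 members and lowered 2. Among all 11944 genes tested the shares were 20.3% higher and 16.3% lower. The changes were small: the median over the members was 0.12 on the scale of log2(FPKM + 1), against 0.01 over all tested genes, the highest was 0.31 and none reached 2-fold. A call here is a Benjamini-Hochberg adjusted p under 0.05 in limma's moderated test over the 12 libraries, and this scale understates the fold change of genes near 1 FPKM. In 27 members every ceritinib library lay above every DMSO library and in 3 every one lay below, where 28.9% and 23.8% of all tested genes did so. On the TPM scale, in which every library is set to the same sum, 12 members were called higher and 2 lower, and the median of all genes shifted to -0.06. Here and below, shares of all tested genes are those of the deposited values unless another setting is named with them. They are not the background of counts under other scalings.

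Among the processing factors, 5 of 11 for the large and 8 of 13 for the small subunit were called higher. GNL3 (nucleostemin, a nucleolar GTPase of large-subunit assembly, chromosome 3, 52681156 to 52694492, hg38) held 48.5, 50.7 and 48.02 FPKM in the DMSO libraries, 57.7, 62.7 and 62.2 with ceritinib, 55.1, 51.8 and 53.7 with crenolanib and 20.02, 20.4 and 21.2 with both drugs. The 4 groups did not overlap, with ceritinib highest and the combination lowest. The ceritinib change of GNL3 was 0.31 ± 0.038 (SE, adjusted p = 7.79e-05). NOP2, a methyltransferase of large-subunit RNA (chromosome 12, 6556863 to 6568691), held 23.9, 24.6 and 22.9 FPKM in DMSO, 28.9, 29.5 and 28.5 with ceritinib, 24.3, 24.4 and 24.5 with crenolanib and 26.6, 27.98 and 27.9 with both. All ceritinib libraries were above all others, and the crenolanib libraries lay within the DMSO range. NOP2 changed by 0.27 ± 0.031 (SE, adjusted p = 3.54e-05) with ceritinib.

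BOP1, a scaffold of the PeBoW complex of large-subunit assembly with PES1 and WDR12, held 28.5, 30.8 and 30.8 FPKM in DMSO, 39.9, 36.6 and 35.4 with ceritinib, 29.6, 34.7 and 30.98 with crenolanib and 59.3, 53.1 and 52.3 with both drugs. Ceritinib and combination libraries were above every DMSO library, and crenolanib overlapped DMSO. BOP1 changed by 0.30 ± 0.065 (SE, adjusted p = 0.00346) with ceritinib. Of the 11 large-subunit members, 5 rose and 0 fell with ceritinib in limma (6 and 0 at an unadjusted p under 0.05): GNL3, BOP1, NOP2, RRP1B (0.20) and NOP16 (0.16).

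DDX10 (chromosome 11, 108665025 to 108940930) held 5.12, 5.33 and 4.83 FPKM in DMSO, 6.31, 6.46 and 6.52 with ceritinib, 6.28, 6.54 and 6.15 with crenolanib and 5.77, 5.38 and 5.46 with both. Each treated group was above DMSO, and the combination lay between DMSO and the single drugs. DDX10 changed by 0.29 ± 0.04 (SE, adjusted p = 0.000168) with ceritinib. UTP20, a long scaffold protein of the small-subunit processome (chromosome 12, 101280109 to 101386616), held 10.3, 10.02 and 10.2 FPKM in DMSO, 12.2, 11.8 and 12.1 with ceritinib, 11.1, 10.5 and 10.8 with crenolanib and 2.16, 2.004 and 2.11 with both. The 4 groups did not overlap, and the combination was far below the others. With ceritinib UTP20 changed by 0.22 ± 0.032 (SE, adjusted p = 0.00025). In all, 8 of 13 small-subunit members rose with ceritinib and 0 fell in limma (10 and 0 at an unadjusted p under 0.05): DDX10, UTP20, UTP14A (0.21), RRP12 (0.20), UTP4 (0.19), NOP14 (0.16), RRP9 (0.16) and WDR43 (0.15).

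All 4 RNA polymerase I members were called higher with ceritinib, beside 20.3% of tested genes, but POLR1A alone was called under all 5 ways of scaling or correcting used here, and on the TPM scale it was the only one. POLR1A, the largest catalytic subunit (chromosome 2, 86020216 to 86106155), held 12.96, 12.9 and 12.8 FPKM in DMSO, 15.8, 15.4 and 15.1 with ceritinib, 14.2, 14.6 and 13.8 with crenolanib and 10.4, 9.91 and 9.66 with both drugs. The groups did not overlap: both single drugs were above DMSO and the combination was below it. POLR1A changed by 0.24 ± 0.034 (SE, adjusted p = 0.000159) with ceritinib. POLR1C, a subunit shared with RNA polymerase III, changed by 0.15, POLR1E by 0.12 and the second-largest subunit POLR1B by 0.11. NOLC1, a chaperone of snoRNPs, rose by 0.25 and LYAR, a nucleolar zinc-finger protein, by 0.16.

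The snoRNP core proteins did not move together with ceritinib. Of the box C/D proteins, NOP56 rose (0.19 ± 0.024) and FBL fell, while NOP58 was at 0.11 (adjusted p = 0.0565). FBL (fibrillarin, the methyltransferase of box C/D snoRNPs, chromosome 19, 39834458 to 39846414) held 84.7, 86.8 and 85.9 FPKM in DMSO, 80.1, 79.8 and 80.8 with ceritinib, 80.7, 83.1 and 83.3 with crenolanib and 128, 134 and 131 with both drugs. Both single-drug groups were just below DMSO and the combination far above it. FBL changed by -0.10 ± 0.024 (SE, adjusted p = 0.00894) with ceritinib. NOP10, a small protein of box H/ACA snoRNPs (chromosome 15, 34341713 to 34343177), held 119.7, 118 and 121 FPKM in DMSO, 108, 102 and 106 with ceritinib, 99.1, 106 and 109.9 with crenolanib and 102, 93.003 and 106 with both. All 9 treated libraries were below the 3 DMSO libraries, and the treated groups overlapped each other. NOP10 changed by -0.18 ± 0.048 (SE, adjusted p = 0.013) with ceritinib.

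NHP2, another box H/ACA core protein (chromosome 5, 178149460 to 178153967), held 75.8, 76.97 and 73.7 FPKM in DMSO, 81.8, 80.8 and 82.2 with ceritinib, 73.4, 75.7 and 80.3 with crenolanib and 124, 121 and 123 with both. Ceritinib was above DMSO, crenolanib overlapped it and the combination was highest. NHP2 changed by 0.11 ± 0.031 (SE, adjusted p = 0.0159) with ceritinib. DKC1 (dyskerin, the pseudouridine synthase of these particles, chromosome X, 154762742 to 154777689) held 46.01, 47.5 and 45.3 FPKM in DMSO, 48.1, 48.95 and 47.002 with ceritinib, 49.9, 48.7 and 50.7 with crenolanib and 35.01, 35.2 and 36.995 with both. Ceritinib overlapped DMSO, crenolanib was above it and the combination below it. The ceritinib change of DKC1 was 0.05 (adjusted p = 0.199).

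With crenolanib alone 6 of the 40 members were called higher and 2 lower, where 13% of all tested genes were called in each direction. The higher count was near that share, and the median over the members was 0.02. In 8 members the crenolanib libraries were all above DMSO and in 5 all below, with 21.6% of tested genes in each direction. The balance moved with the scaling, to 3 higher and 3 lower on the TPM scale, 10 and 1 with median-of-ratios scaling and 4 and 3 with quantile normalization. DDX10 rose most (0.27 ± 0.04 (SE, adjusted p = 0.000545)). NOP58, a box C/D core protein (chromosome 2, 202265716 to 202303666), held 35.9, 35.7 and 35.9 FPKM in DMSO, 38.05, 39.4 and 39.1 with ceritinib, 43.4, 39.6 and 41.9 with crenolanib and 10.002, 10.6 and 11.4 with both drugs. The 4 groups did not overlap, with crenolanib highest and the combination lowest. NOP58 changed by 0.21 ± 0.043 (SE, adjusted p = 0.00388) with crenolanib. The other members that rose were POLR1A (0.13, adjusted p = 0.0137), GNL3 (0.12), DKC1 (0.10) and NOP56 (0.09).

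The members that fell with crenolanib were NOP10 (-0.18, adjusted p = 0.0152) and NPM1. NPM1 (chromosome 5, 171387116 to 171411137) held 473, 456 and 477 FPKM in DMSO, 468, 471 and 477 with ceritinib, 438, 406 and 425 with crenolanib and 324, 342 and 346 with both. Ceritinib overlapped DMSO, crenolanib was below it and the combination was lowest. The crenolanib change of NPM1 was -0.15 ± 0.033 (SE, adjusted p = 0.00679). Many processed pseudogenes of NPM1 are annotated, so the authors' counting may have split its reads.

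Set against crenolanib directly, ceritinib had 18 members higher and 0 lower, where 19.4% and 15.4% of tested genes were called. In limma at an unadjusted p under 0.05, 23 were higher and 1 lower. The count depended on the scale: 7 were higher and 3 lower on the TPM scale, 6 and 3 with median-of-ratios scaling, 18 and 1 with quantile normalization, and 20 and 3 after a correction for GC content and length (18.2% and 19.7% of genes). NOLC1 (0.25 ± 0.028) and NOP2 (0.24 ± 0.031) differed most.

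The combination changed nearly all members, in both directions, as it did most tested genes, in libraries that stood apart as given above. Against DMSO 14 were higher and 23 lower, where 36.8% of all tested genes were called higher and 50.9% lower. The higher count was near its share, and the lower count was somewhat above its own. The median over the members was -0.31, and that over all tested genes was -0.16. Of the 23, 12 fell by 2-fold or more on the log2(FPKM + 1) scale, and 0 rose by as much. The share of all tested genes that changed by as much is not given here, so this imbalance is not set against it. In 14 members all combination libraries lay above DMSO and in 23 all lay below, beside 36.8% and 50.8% of tested genes. The scale moved both the median of all genes and the split of the members: the median became -0.34 in TPM, 0.06 under median-of-ratios scaling and 0.01 after quantile normalization, and the members then split into 10 higher and 26 lower, 17 and 20, and 9 and 27. NOP56, NOP16 and POLR1E were not called, at 0.00, 0.02 and -0.06.

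**Figure D2:**
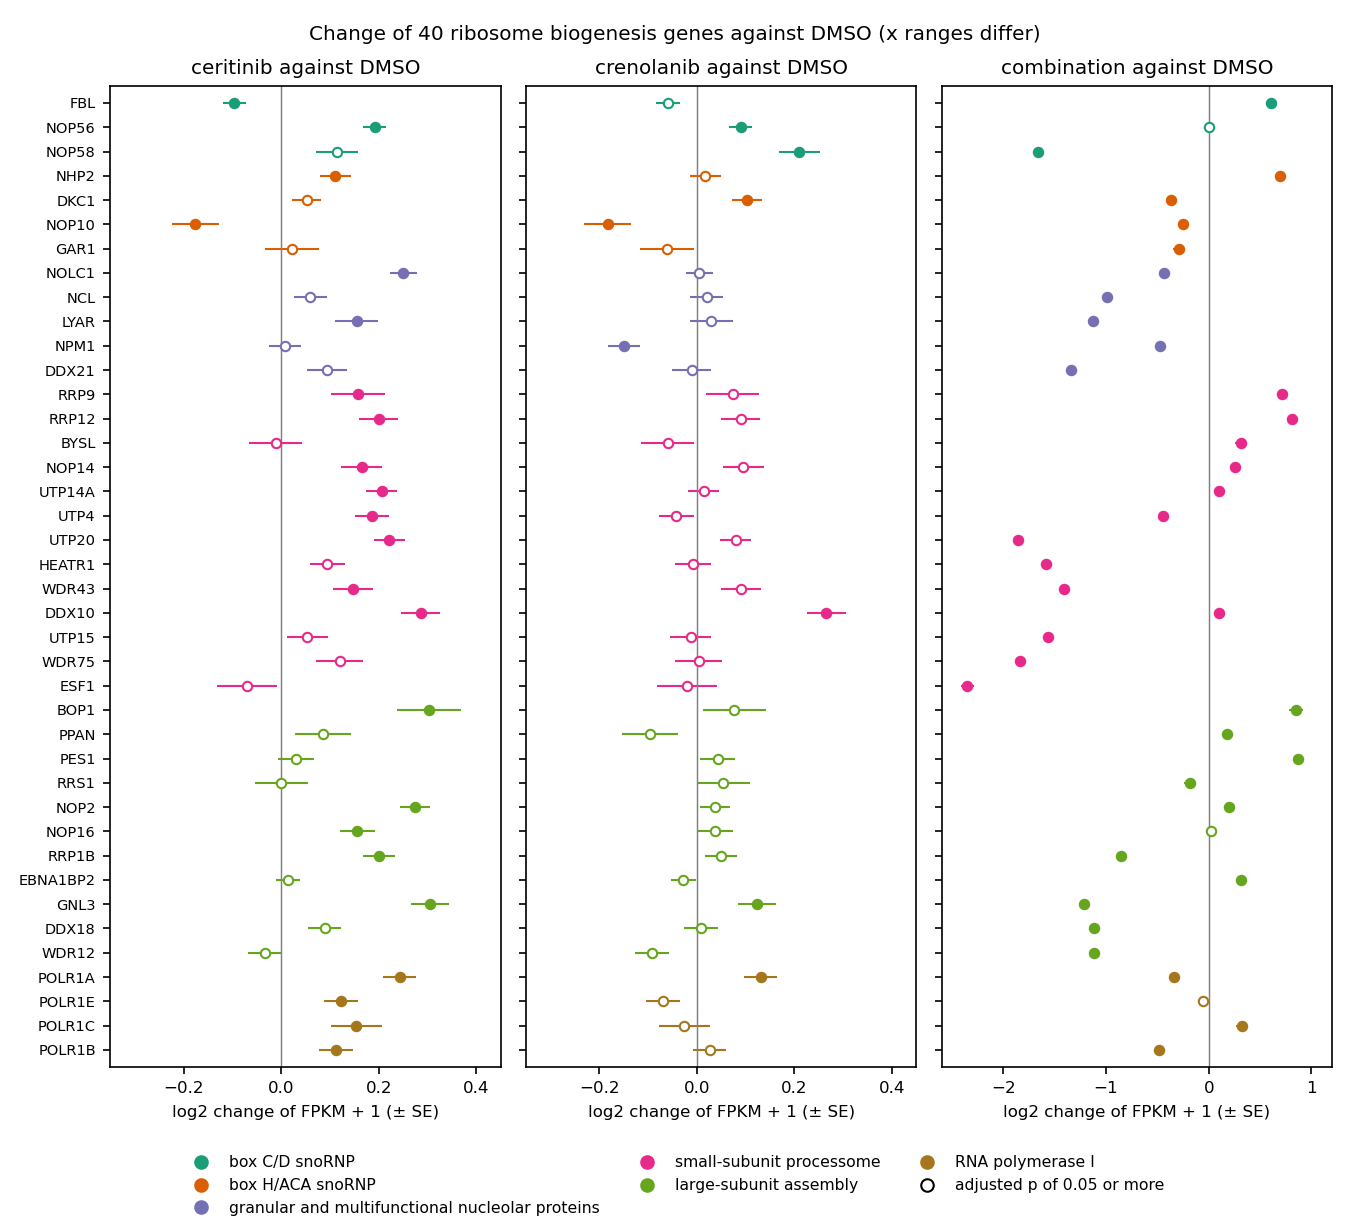
Change of each of the 40 members against DMSO on the log2(FPKM + 1) scale (horizontal axis, with a wider range in the panel of the combination), coloured by role, with bars of 1 SE; open circles did not pass the adjusted threshold. Ceritinib changes lie between -0.18 and 0.31, while combination changes run from -2.35 to 0.86, and of the 6 roles only the granular proteins all move in 1 direction there.

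The steepest falls were in the small-subunit processome, where 7 of 13 members fell and 6 rose. ESF1, a nucleolar pre-ribosomal RNA processing factor (chromosome 20, 13714322 to 13784886), held 12.8, 11.9 and 12.2 FPKM in DMSO, 11.7, 11.9 and 11.4 with ceritinib, 12.96, 11.5 and 11.96 with crenolanib and 1.35, 1.74 and 1.77 with both drugs. The combination libraries were far below all others, and crenolanib overlapped DMSO. ESF1 changed by -2.35 ± 0.061 (SE, adjusted p = 2.81e-12). WDR75, a subunit of the UTP-A complex that joins the nascent precursor first (chromosome 2, 189441433 to 189475565), held 20.1, 19.97 and 18.8 FPKM in DMSO, 20.5, 22.2 and 21.5 with ceritinib, 20.4, 19.2 and 19.5 with crenolanib and 4.36, 4.96 and 5.02 with both. Ceritinib was just above DMSO, crenolanib overlapped it and the combination was far below it. WDR75 changed by -1.84 ± 0.049 (SE, adjusted p = 3.09e-12), and UTP20 by -1.85 ± 0.032 (SE, adjusted p = 2.09e-13).

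All 5 UTP-A subunits among the members fell with the combination. In 4 of them the transcript had under 45% GC, a band in which 82.7% of all tested genes were called lower. Besides WDR75 these were HEATR1 (-1.58, from a mean of 16.98 to 4.995 FPKM), UTP15 (-1.57, from 6.42 to 1.51), WDR43 (-1.41, from 31.1 to 11.1) and UTP4 (-0.45, from 19.7 to 14.2). RRP12, a factor of pre-ribosome maturation and export (chromosome 10, 97356358 to 97426076), held 7.76, 8.14 and 7.56 FPKM in DMSO, 9.51, 8.69 and 9.19 with ceritinib, 8.04, 8.59 and 8.52 with crenolanib and 14.9, 14.3 and 14.3 with both. The combination libraries were highest, ceritinib was above DMSO and crenolanib overlapped it. RRP12 changed by 0.82 ± 0.04 (SE, adjusted p = 7.68e-10). RRP9, a protein of the U3 snoRNP, rose by 0.72, BYSL (bystin, a late small-subunit factor) by 0.31, and NOP14 by 0.25. UTP14A rose by 0.10, with a value of -0.05 on the TPM scale and -0.09 with quantile normalization. DDX10 rose by 0.10, adjusted p = 0.0289, with -0.03 on the TPM scale.

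In large-subunit assembly 5 of 11 members rose and 5 fell, and the PeBoW complex split. BOP1 (65.2% GC) and PES1 (58.2%) lay in the band of 52% GC or more, where 67.8% of tested genes were called higher. WDR12 (40.2%) lay under 45% GC, where 82.7% were called lower. PES1 (pescadillo, chromosome 22, 30576625 to 30607083) held 29.3, 30.4 and 28.9 FPKM in DMSO, 29.7, 31.2 and 29.6 with ceritinib, 29.1, 32.03 and 30.3 with crenolanib and 54.9, 53.6 and 55.2 with both drugs. The combination libraries were the only ones apart, above the overlapping other groups. PES1 changed by 0.86 ± 0.036 (SE, adjusted p = 1.65e-10) and BOP1 by 0.85 ± 0.065 (SE, adjusted p = 5.64e-08), while the third subunit, WDR12, fell by 1.12 (10.4 ± 0.248 to 4.24 ± 0.180 FPKM). GNL3 (-1.22), the helicase DDX18 (-1.12) and RRP1B (-0.85) fell as well, and RRS1, which takes part in loading the 5S particle, was at -0.19, with 0.09 under median-of-ratios scaling. EBNA1BP2 (0.32), NOP2 (0.20) and PPAN (0.18) rose. PPAN shares exons with the readthrough gene PPAN-P2RY11, so its value cannot be assigned to PPAN alone.

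The core proteins of both kinds of snoRNP diverged. FBL (54.3% GC) and NHP2 (57.1%) lay in the GC band where 67.8% of tested genes were called higher. NOP58 (41.3%) lay in the band where 82.7% were called lower. Of the box C/D proteins FBL rose (0.60 ± 0.024 (SE, adjusted p = 1.09e-10)) and NOP58 fell (-1.66 ± 0.043 (SE, adjusted p = 2.66e-12)). NOP58 thereby went from rank 12 of 40 by mean FPKM in DMSO to rank 28, and FBL from rank 6 to rank 3. Of the box H/ACA proteins NHP2 rose (0.69 ± 0.031 (SE, adjusted p = 3.14e-10)), and DKC1 (-0.36), GAR1 (-0.29) and NOP10 (-0.25) fell, NOP10 with a value of 0.03 under median-of-ratios scaling. Exons of NOP56, NOP58, DKC1 and GNL3 overlap small RNA genes that they host. Exons of NHP2, NOP14, UTP4, UTP14A, UTP15, RRP12 and HEATR1 overlap exons of genes on the opposite strand. So do those of NOP16, PES1, WDR12, EBNA1BP2, GNL3 and POLR1C. The strand setting of the authors' counting is not given in the sources used here, and the part of such overlaps in these values was not tested.

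All 5 granular and multifunctional proteins fell with the combination, beside 50.9% of tested genes. DDX21 (41.1% GC), NPM1 (43.3%) and LYAR (43.4%) lay under 45% GC, where 82.7% of tested genes were called lower. NCL (47.2%) and NOLC1 (47.8%) lay in the band of 45% to 52% GC, where 55.5% were called lower. DDX21, a helicase that links RNA polymerase I transcription to processing, went from 100.4 ± 0.942 to 38.97 ± 2.60 FPKM (-1.35). LYAR went from 22.1 ± 1.35 to 9.57 ± 0.327 (-1.13) and NCL from 342 ± 3.51 to 171 ± 7.40 (-0.99). NPM1 changed by -0.48 ± 0.033 (SE, adjusted p = 2.28e-08) and NOLC1 by -0.44. NPM1 and NCL stayed the 2 most abundant members in every group. In RNA polymerase I, POLR1B (-0.49) and POLR1A (-0.34 ± 0.034 (SE, adjusted p = 7.57e-07)) fell and POLR1C rose (0.32).

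Combination changes followed the base composition of the transcripts. Over the 40 members, the combination change and the GC content of the longest annotated transcript had a Spearman correlation of 0.83 (Pearson 0.84), and the change and its length one of -0.45. Over 11733 tested genes with an annotated transcript these were 0.65 and -0.38, and a fit on both explained 46.9% of the variance among genes, against 1.03% for ceritinib and 1.99% for crenolanib. The points share the same libraries, and genes are not independent replicates. Of 15 members with under 45% GC, 14 fell and 1 rose (median -1.35). In the same band 82.7% of tested genes were called lower and the median was -0.75. Of 14 members with 45% to 52% GC, 8 fell and 4 rose (median -0.27, against -0.22 for tested genes). Of 11 members with 52% GC or more, 9 rose and 1 fell (median 0.60), beside 67.8% of tested genes called higher and a median of 0.43.

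The coding sequences of members that fell and of members that rose illustrate the difference in composition. They are examples and not the extremes of change: UTP20 fell slightly more than WDR75, and BOP1 and RRP12 rose more than RRP9. ESF1 and WDR75 had the lowest transcript GC of the members, so the contrast is in part set by the choice. The first 120 coding bases of the longest coding transcript in GENCODE 29 are given for 2 members that fell and 2 that rose, with G and C in capitals. Their start codons are at chromosome 20, 13783140 (ESF1, minus strand), chromosome 2, 189441493 (WDR75, plus strand), chromosome 22, 30591833 (PES1, minus strand) and chromosome 3, 51941867 (RRP9, minus strand), hg38.
ESF1: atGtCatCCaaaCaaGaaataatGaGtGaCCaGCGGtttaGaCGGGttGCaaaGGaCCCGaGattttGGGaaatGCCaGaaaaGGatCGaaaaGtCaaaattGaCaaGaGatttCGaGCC
WDR75: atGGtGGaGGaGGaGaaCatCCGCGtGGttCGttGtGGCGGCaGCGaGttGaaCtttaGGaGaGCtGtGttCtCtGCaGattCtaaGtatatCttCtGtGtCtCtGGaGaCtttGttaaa
PES1: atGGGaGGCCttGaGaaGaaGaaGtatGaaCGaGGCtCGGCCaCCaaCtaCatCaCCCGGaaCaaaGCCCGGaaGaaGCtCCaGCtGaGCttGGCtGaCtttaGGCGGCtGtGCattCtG
RRP9: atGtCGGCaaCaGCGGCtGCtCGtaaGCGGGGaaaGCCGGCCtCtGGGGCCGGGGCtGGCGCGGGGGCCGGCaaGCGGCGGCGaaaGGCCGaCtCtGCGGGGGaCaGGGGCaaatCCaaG
Whole coding sequences had 37.2% GC in ESF1, 39.7% in WDR75, 56.7% in PES1 and 61.3% in RRP9. The bases printed had 42.5%, 47.5%, 55.0% and 72.5%.

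A correction was therefore placed beside the deposited values, in which the part of each library's deviation that follows GC and length over all genes is removed. A trend that the drugs themselves caused would be removed too, and the part of composition in these changes was not tested. After it, 11 members were higher and 25 lower in the combination, where 39.5% of genes were called higher and 40.7% lower, and the median was -0.21 against -0.01 for all genes. The 5 granular proteins still fell, DDX21 by 0.56, LYAR by 0.84, NCL by 0.68, and NPM1 and NOLC1 by 0.17 each. ESF1 (-1.68), NOP58 (-1.20) and WDR75 (-1.03) remained lower by 2-fold or more. In the UTP-A complex UTP4 was no longer called (-0.05), and HEATR1, UTP15 and WDR43 had -0.63, -0.71 and -0.73. PES1 kept 0.40, RRP12 0.52 and FBL 0.17, while BOP1 had 0.12, NHP2 0.09 and RRP9 0.00. WDR12 had -0.13.

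The correction turned the direction of several members. NOP2 (-0.12), BYSL (-0.20) and PPAN (-0.59) were then lower, and POLR1B (0.09) was higher. POLR1A was at 0.05 and no longer called. DDX10 stood out among transcripts of low GC: with 40.2% GC its deposited change was 0.10, and the corrected change was 1.04, the highest of the members. RRS1 (-0.70), PPAN and NOP16 (-0.42) were GC-rich and low after correction. Under all 5 ways of scaling or correcting, 6 members were called higher in the combination (BOP1, FBL, NHP2, PES1, POLR1C and RRP12) and 17 lower (DDX18, DDX21, DKC1, ESF1, GNL3, HEATR1, LYAR, NCL, NOLC1, NOP58, NPM1, RRP1B, UTP15, UTP20, WDR12, WDR43 and WDR75). With ceritinib alone 12 were called higher under all 5 (BOP1, DDX10, GNL3, NOLC1, NOP2, NOP56, POLR1A, RRP12, RRP1B, UTP14A, UTP20 and UTP4) and 2 lower (FBL and NOP10). With crenolanib alone these were 3 higher (DDX10, NOP58 and POLR1A) and 1 lower (NPM1). The share of all tested genes called under all 5 was not counted, so these counts have no background beside them.

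**Figure D3:**
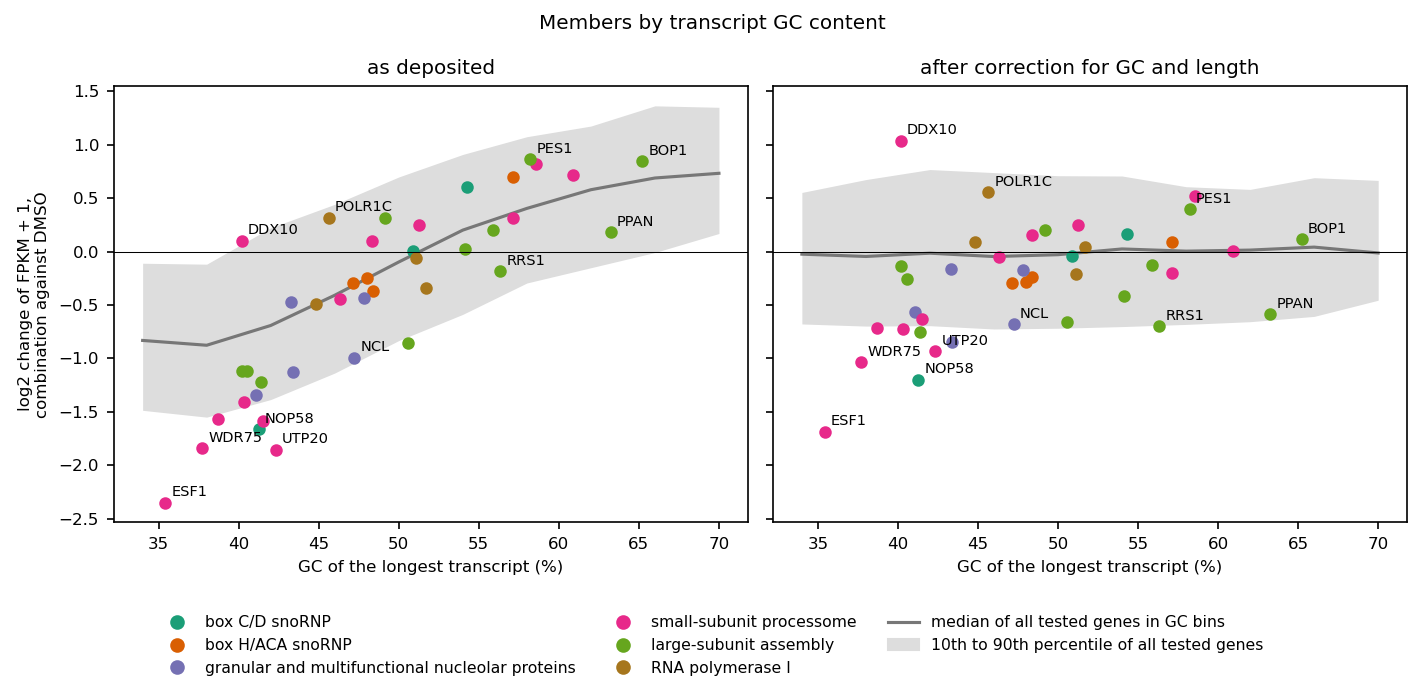
Combination change against DMSO (vertical axis, log2 of FPKM + 1) by GC percent of the longest transcript (horizontal axis), as deposited on the left and after the correction for GC and length on the right; points are the 40 members coloured by role, the line is the median and the band the 10th to 90th percentile of tested genes in GC bins. As deposited the members rise with GC from -2.35 for ESF1 to 0.86 for PES1, and after correction DDX10 (1.04) lies above the band and 9 members lie below it (ESF1, GNL3, LYAR, NOP58, RRS1, UTP15, UTP20, WDR43 and WDR75).

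The combination was also set against each single drug, which asks what the second drug added. Against ceritinib 9 members were higher and 28 lower, with 35.9% and 51.3% of tested genes, and with median-of-ratios scaling 17 and 20. Against crenolanib 13 were higher and 24 lower, with 37.4% and 50.1%, and on the TPM scale 10 and 27. The interaction is what is left of the log2 change in the combination after both single-drug changes are subtracted, and these comparisons share libraries. It was called higher in 10 members and lower in 27, where 33.8% and 47.7% of tested genes were called, and with median-of-ratios scaling in 15 and 20. It was lowest in ESF1 (-2.26 ± 0.087 (SE, adjusted p = 2.32e-10)), UTP20 (-2.16 ± 0.046 (SE, adjusted p = 1.32e-11)) and NOP58 (-1.98 ± 0.061 (SE, adjusted p = 5e-11)). It was highest in PES1 (0.79 ± 0.052 (SE, adjusted p = 2.09e-08)), FBL (0.76 ± 0.034 (SE, adjusted p = 8.8e-10)) and NHP2 (0.57 ± 0.044 (SE, adjusted p = 1.17e-07)), and NHP2 was at -0.07 after correction. NOP14 (-0.01), POLR1E (-0.11) and NOP10 (0.11) were not called. Under all 5 scalings 4 members kept a higher interaction (EBNA1BP2, FBL, PES1 and RRP12) and 17 a lower one. The share of all tested genes that kept one was not counted.

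For 14 members, 1 drug had called changes in opposite directions without and with the other drug, 12 for ceritinib and 6 for crenolanib. Of all tested genes 18.3% met the same rule for either drug, 13.1% for ceritinib and 9.74% for crenolanib. Under all 5 scalings 7 of the 14 members met it: FBL, GNL3, NOLC1, RRP1B and UTP20 for ceritinib, and NOP58 and POLR1A for crenolanib. How many of all tested genes met it under all 5 was not counted. UTP20 changed by 0.22 when ceritinib was given alone and by -1.93 when it was added to crenolanib. GNL3 changed by 0.31 and -1.34, and NOLC1 by 0.25 and -0.44. POLR1A changed by 0.24 and -0.47, and for ceritinib it no longer met the rule after the GC and length correction. NOP58 changed by 0.21 when crenolanib was given alone and by -1.77 when it was added to ceritinib, and POLR1A by 0.13 and -0.58. FBL moved the other way, by -0.10 with ceritinib alone and 0.66 on top of crenolanib.

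**Figure D4:**
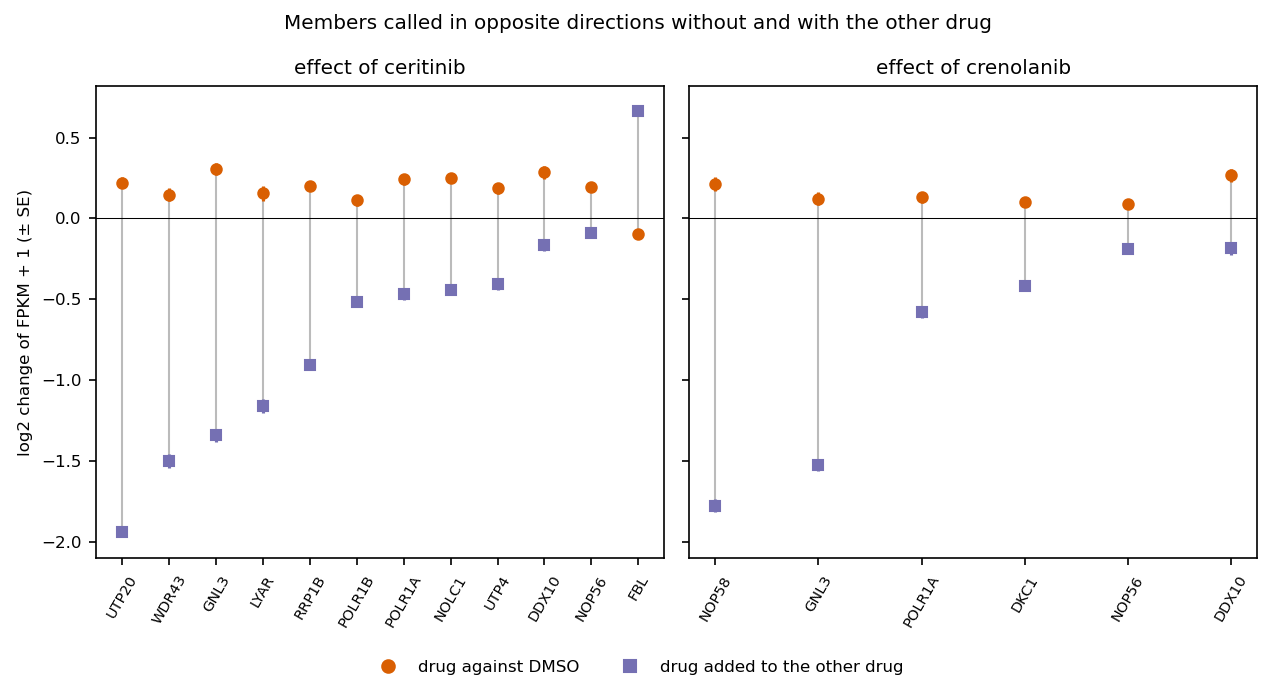
Change (log2 of FPKM + 1, vertical axis, bars of 1 SE) of the members called in opposite directions when a drug was set against DMSO (circles) and when it was added to the other drug (squares), for ceritinib on the left and crenolanib on the right. In every member shown except FBL the circle is above 0 and the square below it.

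The wider pathway was read from 122 other genes, all of which were tested. With ceritinib 41 of them rose and 8 fell, with crenolanib 13 and 14, and with the combination 48 and 63 (53 and 54 of 120 after correction), against the shares of tested genes given above for each comparison. For ceritinib 21 of 48 large-subunit factors rose and 3 fell, 16 of 43 small-subunit factors rose and 1 fell, 4 of 17 polymerase I genes rose and 2 fell, and of 14 exosome genes 0 rose and 2 fell in limma (2 and 2 at an unadjusted p under 0.05). NOL6, a small-subunit factor, rose by 0.35, the large-subunit ATPase MDN1 by 0.33, and RRN3, which recruits RNA polymerase I to its promoter, by 0.32. UBTF, the factor that binds the ribosomal RNA gene promoter, rose by 0.20 with ceritinib and by 0.22 with crenolanib. RSL24D1, a large-subunit placeholder protein, was at -0.30 with ceritinib, -0.23 with crenolanib and 0.75 with the combination.

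In the combination 19 of 48 large-subunit factors rose and 26 fell, 18 of 43 small-subunit factors rose and 21 fell, 7 of 17 polymerase I genes rose and 8 fell, and 4 of 14 exosome genes rose and 8 fell. The polymerase I subunit TWISTNB fell by 2.32 (-1.55 after correction) and the large-subunit factor NOC3L by 2.15 (-1.44 after correction). LTV1, a small-subunit export factor, fell by 1.72 (-1.31 after correction). The exosome subunits EXOSC9 (-1.68) and DIS3 (-1.50) fell, with -0.92 and -0.42 after correction. EXOSC4 (0.88) and EXOSC5 (0.73) rose, with 0.27 and -0.04 after correction. POLR2K, a small subunit shared by the RNA polymerases, rose by 1.14 (1.56 after correction), and NOC4L, a small-subunit factor, by 1.12 (0.31 after correction).

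MYC itself, CDKN1A and MDM2 were read in the same fit. MYC held 5.76, 5.72 and 5.73 FPKM in DMSO, 11.2, 10.3 and 10.03 with ceritinib, 5.46, 5.77 and 5.34 with crenolanib and 8.83, 8.80 and 8.31 with both drugs. Ceritinib libraries were highest, combination libraries lay between them and DMSO, and crenolanib overlapped DMSO. MYC changed by 0.77 ± 0.043 (SE, adjusted p = 7.59e-08) with ceritinib and by 0.52 ± 0.043 (SE, adjusted p = 1.18e-07) with the combination (0.21 after correction). CDKN1A, an inhibitor of cyclin-dependent kinases that halts the cell cycle, was at -0.08 with ceritinib (adjusted p = 0.216), fell by 0.23 with crenolanib and rose by 1.22 with the combination (0.70 after correction). MDM2, a ubiquitin ligase, was at 0.19, 0.21 and -0.85, and at 0.17 in the combination after correction.

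Promoter windows were searched for the E-box CACGTG, the letters that MYC is known to bind. RefSeq windows (GRCh38.p14) from 250 bases before to 50 bases after the start were at hand for 32 of the 40 members, and NOP58, NOLC1, RRP12, BOP1, RRP1B, RRS1, DDX18 and POLR1E had none. The E-box, whose letters are the same on both strands, was in 17 of the 32 (53.1%). It was in 13.2% of 8462 tested protein-coding genes with such windows, and in 29 of 106 other pathway genes (27.4%). CCGGAAG, letters bound by ETS factors, was in 11 of 32 members (34.4%) and 23.9% of tested genes, with both strands searched, and in 47 of 106 other pathway genes (44.3%). Of the 17 members with an E-box 9 were called higher and 2 lower with ceritinib, and of the 15 with a window and none, 7 and 0. The proportions called higher were thus similar with and without an E-box. Of all tested genes 20.3% were called higher and 16.3% lower, and the shares among tested genes with an E-box were not counted. Members without a window are in neither count. These are matches of letters, with no measurement of binding.

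The sites of 7 members are shown, chosen because they sit close to the start and so that both directions of change in the combination are represented. They are not all of the closest: a site of NOP10, 11 bases before the start, is not shown. Each line holds 30 bases in the direction of transcription with the E-box in capitals. UTP20, ESF1, GNL3 and WDR43 fell in the combination, and FBL, PES1 and RRP9 rose.
UTP20: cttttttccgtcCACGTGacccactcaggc
ESF1: gggtgtgagcccCACGTGaggcttggtagg
GNL3: ggcttcagttcaCACGTGgcgccagcggag
WDR43: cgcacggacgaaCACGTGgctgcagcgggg
FBL: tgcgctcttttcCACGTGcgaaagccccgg
PES1: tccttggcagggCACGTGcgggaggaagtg
RRP9: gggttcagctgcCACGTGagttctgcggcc
They lie at chr12:101280083-101280112 (UTP20, plus strand), chr20:13784890-13784919 (ESF1, minus), chr3:52686026-52686055 (GNL3, plus), chr2:28894658-28894687 (WDR43, plus), chr19:39846356-39846385 (FBL, minus), chr22:30591880-30591909 (PES1, minus) and chr3:51941892-51941921 (RRP9, minus). The first base of the E-box was 10 bases before the RefSeq start in UTP20 and 5 before it in RRP9. It was base 4 after the start in WDR43, 7 in FBL and GNL3, 13 in ESF1 and 14 in PES1. The GNL3 start is that of its RefSeq window 2, and window 1 of GNL3 held no E-box.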

How the data were processed

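The deposited files hold FPKM, the authors' normalized expression values, for the 12 libraries. No header states the unit, and it was inferred: the sums per library are far below those of a TPM file, and low values of genes with 1 annotated transcript, multiplied by its length, pile up at 1 value per library, which was taken as 1 fragment and gave the estimated depths. Per the labels' protocols the libraries were strand-specific. Per the submitters' processing notes FastQC 0.11.2, STAR, StringTie and the build hg38 were used. The sources used here name no version of STAR or StringTie, no annotation and no strand setting of counting. The entry with no gene name, 0.000975% to 0.00426% of the FPKM of a library, was left out.

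A gene was tested when 3 or more libraries had 1 FPKM or more, which 11944 genes met. limma 3.58.1 (R 4.3.3) modelled log2(FPKM + 1) with a mean for each group (trend on, robust off, 8 residual degrees of freedom, two-sided). The 7 comparisons were adjusted by Benjamini-Hochberg over all genes tested. The labels call the samples of a group biological replicates and say no more, so p-values measure the spread between these samples. Transcript length, GC content and hg38 positions came from GENCODE 29, and promoter windows from RefSeq (GRCh38.p14). The correction for GC and length removed, from each library's deviation from the mean of all libraries, natural splines of both (5 degrees of freedom each). It covered 11733 genes (98.2%).

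The alternatives were the TPM scale, median-of-ratios scaling, quantile normalization, that correction, pseudocounts of 0.1 and 0.5, other filters, robust moderation, only the groups compared, a replicate block and leaving out each library. The members, gene lists and tests were chosen with earlier results of these data known. Values in every library were given for NOP2, DKC1, POLR1A, UTP20 and NPM1, and for the 3 members with the largest called change in each direction in each comparison with DMSO and in the interaction. Of the other pathway genes, up to 3 per list and direction with the largest called change could be named, and MYC, MDM2 and CDKN1A were given once. One further gene is not reported here. WDR43 and RRP9 were added to the sequences after their values were seen. The fit was tested on simulated data of 11944 genes with 50 changed at each of several sizes. At a log2 change of 0.25 it recovered 66% to 70% of them, and 5.35% to 6.19% of the calls were false. Few genes changed there, whereas most did in the combination, so the test does not cover that setting.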

Additional observations from a re-analysis of the deposited data

Results flagged for a closer look

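For 14 members the effect of 1 drug differed in direction without and with the other drug, with both effects and the interaction past the adjusted threshold of 0.05 in limma (n = 3 per group). Of all tested genes 18.3% met the same rule. The interaction on the log2 scale was -2.16 for UTP20, -1.98 for NOP58, -1.64 for GNL3 and -1.64 for WDR43. It was -1.31 for LYAR, -1.10 for RRP1B, -0.71 for POLR1A, -0.69 for NOLC1 and -0.63 for POLR1B. It was -0.59 for UTP4, -0.52 for DKC1, -0.45 for DDX10 and -0.28 for NOP56, and 0.76 for FBL. After the correction for GC content and length the interaction of UTP20 was -1.21, of NOP58 -1.54, of GNL3 -1.20 and of FBL 0.29. That of DDX10 turned to 0.49, and that of POLR1B was -0.04, no longer past the threshold. NOP56 lay above ceritinib and crenolanib alone in the combination with median-of-ratios scaling, by 0.12 and 0.15. DDX10 lay above ceritinib alone in the combination by 0.08 under median-of-ratios scaling, 0.03 under quantile normalization and 0.75 once corrected for GC and length, and above crenolanib alone by 0.04, 0.04 and 0.78. Under the 5 scalings or corrections 7 of the 14 met the rule throughout, and NOP56, DDX10, POLR1B, DKC1, LYAR, WDR43 and UTP4 did not. POLR1A met it throughout for crenolanib only. The share of all tested genes that met it throughout was not counted. The fitted trend with GC and length moves with all of these values, and its part in them was not tested.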

How the results depend on the processing

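Against DMSO the combination had 9 to 17 members higher and 20 to 27 lower over the alternatives (14 and 23 as reported). Scaling moved several counts by over 1.5 times, and the shares of all tested genes under these other scalings are not given beside them. On the TPM scale ceritinib had 12 members higher (21 as reported), crenolanib 3 (6 as reported), and ceritinib against crenolanib 7 higher and 3 lower (18 and 0 as reported). With median-of-ratios scaling crenolanib had 10 higher and 1 lower (2 as reported), the combination against ceritinib 17 higher (9 as reported), and ceritinib against crenolanib 6 higher and 3 lower. With quantile normalization the combination had 9 higher (14 as reported), and ceritinib against crenolanib 1 lower. After the GC and length correction ceritinib against crenolanib had 3 lower, and the interaction 6 higher (10 as reported). With no filter on low values crenolanib had 1 lower. The cause of these shifts was not tested.

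No label says that equal replicate numbers mark paired libraries. Over 18 pairs with the same number the deviations had a median correlation of -0.001, and 1 pair was over 0.1, at 0.16. With 3 libraries per group this cannot exclude a pairing. A replicate block gave 20 members higher and 2 lower for ceritinib, 5 and 2 for crenolanib, 14 and 23 for the combination, and 9 and 27 for the interaction. The block with the GC and length correction gave 8 higher for the combination against crenolanib (13 as reported), 3 lower for ceritinib against crenolanib and 6 higher for the interaction.

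Leaving out 1 library at a time gave, for members higher and lower, 16 to 25 and 1 to 2 for ceritinib, 3 to 6 and 1 to 3 for crenolanib, and 13 to 14 and 23 to 23 for the combination. It gave 9 to 10 and 27 to 28 for the combination against ceritinib, 12 to 13 and 24 to 24 against crenolanib, 11 to 19 and 0 to 1 for ceritinib against crenolanib, and 8 to 10 and 25 to 28 for the interaction. Crenolanib fell to 3 higher and 1 lower without DMSO replicate 3, and to 1 lower without crenolanib replicate 1. Ceritinib had 1 lower without ceritinib replicate 2. Ceritinib against crenolanib had 11 higher without crenolanib replicate 3 or ceritinib replicate 1, and 1 lower without crenolanib replicate 2.

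Of 1520 values of the 16 members given in every library, 31 changed direction. With the GC and length correction (with or without the block) the combination change of NOP2 was -0.12 and of POLR1A 0.047, the interaction of BOP1 -0.20, of DDX10 0.49 and of NHP2 -0.070, and the ceritinib change of NPM1 -0.0092. On the TPM scale the ceritinib changes of DKC1, NPM1 and PES1 were -0.021, -0.066 and -0.043, the combination change of DDX10 -0.034, and the crenolanib changes of WDR75 and NHP2 -0.015 and -0.0016. With median-of-ratios scaling the interaction of NOP2 was 0.15, the combination change of NOP10 0.034, the ceritinib change of NPM1 -0.020 and the crenolanib change of ESF1 0.019. With quantile normalization the interaction of NOP10 was -0.23, and the crenolanib changes of WDR75 and NHP2 -0.027 and -0.0090. Leaving out 1 library gave -0.012 to 0.021 for NPM1 with ceritinib. With crenolanib it gave -0.065 to 0.015 for ESF1, -0.025 to 0.021 for WDR75 and -0.018 to 0.046 for NHP2.

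A member that was not called with 3 libraries a group is not shown to be unchanged. Depth is an estimate, and ESF1 rests on 84.8 to 126 fragments per combination library.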
